A study of Mus musculus with 116 samples.

Results

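The translocations described here join a Cas9 break in c-Myc to the Vk region, the 3219999 bp on mouse chromosome 6 that hold the variable segments of the immunoglobulin kappa (Igk) locus. They were chosen by position alone: a junction was a member if its prey, the partner of the broken end, lay at chr6:67500001-70719999 (mm10). Of 891855 junctions in 54 libraries, 43287 were interchromosomal and 6296 were members. Members were found in 40 of the 54 libraries. The neighbouring Jk segments took 3137 junctions, and 33726 lay outside Igk.

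The study followed the repair of DNA breaks in v-Abl-transformed mouse pro-B cells to separate the roles of Ku70 and ligase IV (Lig4). All cells carried the Emu-Bcl2 transgene, and Cas9 with a c-Myc guide RNA was nucleofected in every group used here. Of 18 groups of 3 libraries, 16 were G1-arrested with STI-571 (3 µM for 96 h) and 2 were cycling. The genotypes were Emu-Bcl2 alone (called WT in the titles) in clones A and B, Ku70-/- in clones A1 and B1, Lig4-/- in clones A1, B1 and C, and Lig4-/-Ku70-/- in clones A1-1 and C1. Lig4-/- clones A1 and C were also studied with Lig4 added back, and both Lig4-/-Ku70-/- clones with Ku70 added back. The cycling groups were WT clone A and Lig4-/- clone A1. Clones that share a first letter were compared as lineage A, B or C, and each genotype of a lineage rested on a single clone.

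In pro-B cells the RAG recombinase cuts Igk between a gene segment and its recombination signal sequence (RSS), a heptamer and a nonamer held apart by a spacer. Each cut leaves a hairpin coding end, which carries the segment, and a blunt signal end, which carries the RSS. Classical non-homologous end joining then joins them: the Ku70-Ku80 heterodimer binds the ends and Lig4 seals them. Ends that escape can join other breaks, and joins of c-Myc to immunoglobulin loci are a known feature of B-lineage tumours. Arrest of v-Abl pro-B cells with STI-571 is known to induce RAG and Vk-to-Jk recombination.

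The sequences below show the broken ends that were joined, as read from the deposited reads, because the results turn on how much of each end was kept. The bait ended most often at chr15:61987303, inside the Myc gene (61985341 to 61990361 in the RefSeq table). Its last 30 bases are chr15:61987274-61987303, plus strand. The next lines give 10 coding bases of 4 Igkv segments in lower case, then the heptamer in capitals, 12 spacer bases, and the nonamer in capitals, all 5′ to 3′ and running from segment to RSS.
c-Myc bait end: cagctgctagtccgacgagcgtcactgata
Igkv6-32, chr6:70073996-70074033, minus strand: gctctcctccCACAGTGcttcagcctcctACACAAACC
Igkv8-30, chr6:70117033-70117070, minus strand: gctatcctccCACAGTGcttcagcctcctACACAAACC
Igkv8-23-1, chr6:70240399-70240436, minus strand: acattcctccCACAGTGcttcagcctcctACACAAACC
Igkv1-135, chr6:67610499-67610536, plus strand: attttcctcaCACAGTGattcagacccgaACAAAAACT

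Igkv6-32, Igkv8-30 and Igkv8-23-1 share all 28 letters of the RSS, and Igkv1-135 shares 21 of them with Igkv6-32. At the letter of Igkv8-30 on which reads agreed least, 80% of reads gave the letter shown. The least covered letter was read 41 times for Igkv6-32, 8 times for Igkv8-23-1 and 3 times for Igkv8-30 and Igkv1-135. The cut between coding base and heptamer was placed at the annotated end of the segment on the RSS side. RAG-made Vk-to-Jk1 joints of WT cells deposited in the same series set which end that was. A cut was given to the 118 of 162 segments whose most frequent joint lay within 10 bp of the annotated end. Of these, 48 lie so that joining to Jk1 deletes the DNA between them and 70 so that it inverts that DNA.

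The next lines print single joins, with 20 bait bases before the junction and 25 bases after it. Capitals mark the heptamer in the WT signal-end join, the inserted bases in the WT coding-end join, and the microhomology, bases that fit both bait and prey, in the other 3. They were chosen as examples of each structure.
WT signal-end join, Igkv19-93, prey at chr6 68736296: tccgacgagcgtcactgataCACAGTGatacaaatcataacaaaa
WT coding-end join, Igkv8-27, prey at chr6 70171814: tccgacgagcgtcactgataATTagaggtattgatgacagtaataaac
Ku70-/- coding-end join, Igkv6-32, prey at chr6 70074065: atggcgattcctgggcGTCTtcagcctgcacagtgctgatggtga
Ku70-/- signal-end join, Igkv6-32, prey at chr6 70073990: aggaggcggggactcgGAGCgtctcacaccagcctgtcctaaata
Lig4-/-Ku70-/- coding-end join, Igkv6-32, prey at chr6 70074030: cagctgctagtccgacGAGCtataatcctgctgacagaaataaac

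The WT signal-end join kept every base of bait and prey. The WT coding-end join kept the bait, lost 5 bases of the segment and gained 3 bases. The Ku70-/- joins lost 71 and 29 bait bases, and 41 coding and 33 signal bases. The Lig4-/-Ku70-/- join lost 10 bait and 6 coding bases. All 3 of those joins held 4 bp of microhomology.

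Vk translocations were rare in WT cells and nearly absent in Lig4-/- cells. Where Ku70 was deleted they were more frequent than in the WT or Lig4-/- clone of the same lineage. They were also frequent in Lig4-/- +Lig4 clone A1, which keeps Ku70. WT clone A libraries held 11, 7 and 8, or 2.78, 1.77 and 2.02 per 100000 raw reads. A second G1-arrested set of WT clone A held 0, 2 and 2, or 0, 0.644 and 0.644, which lies below the first set, and it was compared with the cycling cells only. WT clone B libraries held 43, 36 and 63, or 7.17, 6.0 and 10.5. Ku70-/- clone A1 gave 19.4, 52.7 and 15.6 per 100000, and Ku70-/- clone B1 gave 192.5, 114 and 223. In both lineages every Ku70-/- library was above every WT library. Libraries of a group may be technical replicates, since the labels do not say that they came from separate cultures, so p-values measure only the spread between them. On the log2 scale (0.5 junctions added) Ku70-/- exceeded WT by 3.48 in lineage A and 4.45 in lineage B, on average 3.97 (exact permutation test within lineages, two-sided, n = 6 and 6, p = 0.005, the smallest possible, adjusted p = 0.0179 over 25 tests). In lineage B all libraries came from 1 sequencing run, as read names show, while in lineage A Ku70-/- and WT shared no run, so genotype and sequencing run cannot be told apart in that lineage. The number of cells behind each library is not given in the sources used here, and the stated raw read number is the same for all libraries of a set.

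**Figure D1:**
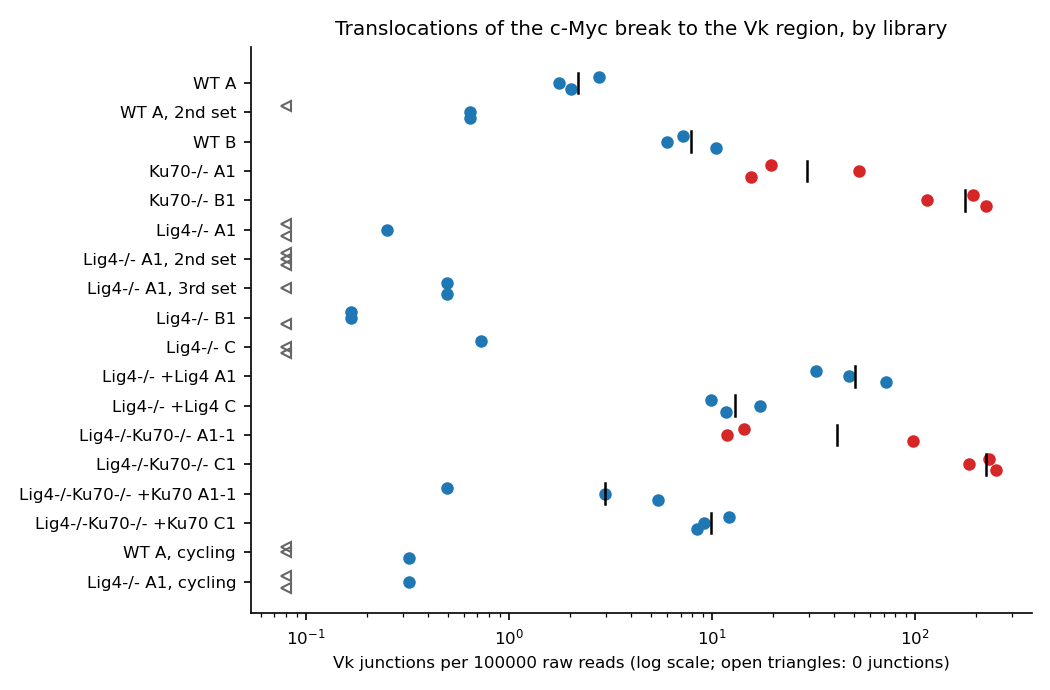
Vk junctions per 100000 raw reads in each of the 54 Cas9 libraries, on a log scale. Each point is a library, open triangles are libraries with 0 junctions drawn at an arbitrary place on the left, vertical bars are means of groups with no zeros, and red marks the genotypes that lack Ku70. Lig4-/-Ku70-/- C1 and Ku70-/- B1 libraries lie farthest right, between 114 and 252, and no G1-arrested Lig4-/- library exceeds 0.732.

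Lig4-/- cells gave 7 Vk junctions in 15 G1-arrested libraries. Those set against WT held 0, 1 and 0 in clone A1 and 1, 1 and 0 in clone B1. WT clone A held 26 times as many junctions as Lig4-/- clone A1 (26 against 1, exact 95% interval of the ratio 4.27 to 1066). WT clone B held 71.0 times as many as clone B1 (142 against 2, 19.3 to 592). These intervals cover counting error only. The mean log2 difference was -4.56 (exact permutation test, n = 6 and 6, p = 0.005, adjusted p = 0.0179), and its size depends on the 0.5 that was added. Divided by all junctions of a library, rejoining at c-Myc included, the log2 difference turned to 3.48 (exact permutation test, n = 6 and 6, p = 0.005). These Lig4-/- libraries held 124 to 155 junctions in all and the WT libraries 28028 to 55809. With 0.5 added, even a Lig4-/- library with 0 Vk junctions scored above every WT library. This value and its p therefore cannot show a higher Vk share in Lig4-/- cells. A library with 0 junctions could still hold up to 3 by chance, or 0.500 to 1.49 per 100000 reads depending on its set.

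Vk translocations were frequent again in Lig4-/- cells that also lacked Ku70. Lig4-/-Ku70-/- clone A1-1 gave 14.4, 11.9 and 98.1 per 100000, and clone C1 gave 231, 185 and 252. The third library of A1-1 stood well above the other two and came from another sequencing run, which also held the highest library of Ku70-/- A1 and the highest of the Ku70 add-back to A1-1. In lineage C the compared groups shared no run, and within the runs shared in lineage A the difference from Lig4-/- was 6.0. The matched Lig4-/- libraries held 1, 0 and 1 junctions in clone A1 and 2, 0 and 0 in clone C. The ratio of counts was 126 in lineage A (251 against 2, 34.4 to 1042) and 912 in lineage C (1824 against 2, 252 to 7536). The mean log2 difference was 7.56 (exact permutation test, n = 6 and 6, p = 0.005, adjusted p = 0.0179). Divided by all junctions of a library, it was 0.68 and did not pass (exact permutation test, n = 6 and 6, p = 0.49). This value too rests on the 0.5 added to Lig4-/- counts of 0. Against Ku70-/- clone A1, Lig4-/-Ku70-/- clone A1-1 differed by 0.03 on the log2 scale (exact permutation test, n = 3 and 3, p = 1, smallest possible 0.1), with overlapping libraries of 11.9 to 98.1 and 15.6 to 52.7. Within the 1 sequencing run that both share, the difference was 0.90. A p of this size does not show that they act alike.

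Adding Ku70 back to Lig4-/-Ku70-/- cells lowered Vk translocations, and adding Lig4 back to Lig4-/- cells raised them. With Ku70, clone A1-1 gave 0.495, 2.97 and 5.45 per 100000 and clone C1 gave 12.1, 9.15 and 8.42, all below every parental library. The mean log2 change was -3.96 (exact permutation test, n = 6 and 6, p = 0.005, adjusted p = 0.0179). Divided by all junctions of a library, the Ku70 and Lig4 add-back changes turned to 1.17 and -1.06. The Lig4 value also rests on the 0.5 added to Lig4-/- counts of 0. With Lig4, clone A1 gave 32.7, 47.6 and 71.8 and clone C gave 9.88, 17.2 and 11.7. The ratio to the Lig4-/- counts was 154 in lineage A (307 against 2, 42.1 to 1273) and 53.0 in lineage C (exact 95% interval 14.3 to 443), and the mean log2 change was 5.95, with no sequencing run shared between the groups in either lineage (exact permutation test, n = 6 and 6, p = 0.005, adjusted p = 0.0179). Lig4-/- +Lig4 clone A1 also stood above WT clone A, by 4.41 (exact permutation test, n = 3 and 3, p = 0.1, the smallest possible).

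In cycling cells Vk translocations were close to the limit of detection. Cycling WT libraries held 0, 0 and 1 junctions, against 0, 2 and 2 in the G1-arrested WT set of the same read number. Cycling Lig4-/- libraries held 0, 1 and 0, against 0 in all 3 G1-arrested ones. Cycling and G1-arrested libraries shared no sequencing run. The G1-arrested to cycling ratio in WT was 4 (4 against 1, interval 0.396 to 197), so no difference was detectable at this depth (exact permutation test, n = 3 and 3, p = 0.4 for WT and p = 1 for Lig4-/-, smallest possible 0.1). The difference between the 2 cycling effects was not detectable either (1.55 on the log2 scale, exact permutation test, n = 3 in each of 4 groups, p = 0.25).

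Because the number of all translocations also changed, Vk junctions were also expressed as a share of all interchromosomal junctions of the same library, Vk included. They made up 1.54%, 1.0% and 1.83% of these in WT clone A and 3.15%, 2.88% and 2.62% in WT clone B. The share was 8.73%, 13.8% and 5.78% in Ku70-/- clone A1 and 26.0%, 29.3% and 24.5% in Ku70-/- clone B1. Ku70-/- libraries lay above WT in both lineages, on average by 15.9 percentage points (exact permutation test, n = 6 and 6, p = 0.005, adjusted p = 0.0179). In Lig4-/- libraries the share ran from 0% to 1.27% in clones A1 and B1 of the same sets, 1.56 points below WT on average (exact permutation test, n = 6 and 6, p = 0.01, adjusted p = 0.0278). Lineage A overlapped (exact permutation p = 0.2 alone), and with the replicate number as a block the call was lost (exact p = 0.0625). Lig4-/-Ku70-/- libraries reached 5.62%, 5.85% and 11.0% in A1-1 and 20.9%, 18.1% and 23% in C1, 12.8 points above Lig4-/- (exact permutation test, n = 6 and 6, p = 0.005, adjusted p = 0.0179).

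Adding Ku70 back lowered the number of Vk junctions, while their share moved in opposite directions in lineages A and C. With Ku70 the share was 3.33%, 25.0% and 9.65% in A1-1, from 30, 24 and 114 interchromosomal junctions, and 14.1%, 11.5% and 14.9% in C1. The mean difference was -1.0 points, with 5.16 in lineage A and -7.16 in lineage C (exact permutation test, n = 6 and 6, p = 0.845). The mean of opposite effects cannot show that the share stayed the same. In lineage C every add-back library lay below every parental one, and in lineage A the libraries overlapped. Adding Lig4 back raised the share by 7.65 points (exact permutation test, n = 6 and 6, p = 0.01, adjusted p = 0.0278), from 0% to 3.12% in Lig4-/- libraries to 13.1%, 12.8% and 17.8% in clone A1 and 3.21%, 4.00% and 2.48% in clone C. The clone C libraries overlapped their Lig4-/- controls.

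Within Igk, WT and Ku70-deleted cells used the 2 sides of the locus differently. Jk segments, which sit next to the constant region, took most Igk junctions in WT cells, and Vk junctions made up 8.87%, 7.0% and 13.3% of Vk plus Jk in clone A and 15.5%, 13% and 18.6% in clone B. In Ku70-/- cells Vk made up 76.2%, 76.8% and 72.9% in A1 and 74.8%, 69.2% and 71.7% in B1. The difference averaged 60.9 points (exact permutation test, n = 6 and 6, p = 0.005, adjusted p = 0.0236 over 33 added tests). Jk junctions per 100000 reads were 21.7 ± 7.85 in WT A and 9.25 ± 5.75 in Ku70-/- A1 (SD, n = 3), and 41.6 ± 3.69 in WT B and 67.9 ± 18.9 in Ku70-/- B1 (SD, n = 3). In Lig4-/-Ku70-/- cells the Vk share was 74.1% ± 11.1 in A1-1 and 88.1% ± 2.11 in C1 (SD, n = 3). It was 51.9% ± 2.86 in Lig4-/- +Lig4 A1 and 49.1% ± 11.2 in +Lig4 C (SD, n = 3), so Lig4-/-Ku70-/- was 30.6 points higher (exact permutation test, n = 6 and 6, p = 0.005, adjusted p = 0.0236). Lig4-/-Ku70-/- and Lig4-/- +Lig4 cells differ in both Ku70 and Lig4, and shared no sequencing run in either lineage. Genotype and run therefore cannot be told apart in any comparison of them, here or below.

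Vk junctions lay at the segments themselves. Within 100 bp of an annotated Igkv segment lay 5324 of 6296 (84.6%), while such positions are 3.66% of the region. Inside a segment lay 2444, and 2880 in the flanking 100 bp. Within 100 bp of a RAG cut, 0.737% of the region, lay 4723 junctions (75%). Of the other 972, 556 were within 1000 bp, 217 within 5000 bp and 199 farther from a segment. The limit of 100 bp cut through a thin tail, with 60 junctions at 91 to 100 bp and 62 at 101 to 110 bp.

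The share near segments was high in every group large enough to measure. It was 93.0%, 88.9% and 88.9% in WT B and 82.9%, 84.1% and 85.4% in Ku70-/- B1, a difference of -6.16 points with no overlap (exact permutation test, n = 3 and 3, p = 0.1, the smallest possible). Other groups averaged from 82.4% in Lig4-/-Ku70-/- C1 to 91.2% in A1-1. Adding Ku70 back to C1 gave 81.8%, 92.0% and 82.6%, which overlapped the parental 82.5%, 81.0% and 83.7% (difference 3.05 points, exact permutation test, n = 3 and 3, p = 0.6).

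Junctions reached all parts of the locus. Split into 4 equal stretches from the distal end toward Jk1, which hold 33, 39, 50 and 40 segments, the locus took 28.2%, 19.2%, 21.4% and 31.2% of all members. Ku70-/- B1 favoured both outer stretches, with 35.6% in the most distal and 30.2% in the one nearest Jk1. Lig4-/-Ku70-/- C1 had 18.8% and 35% there. In lineage A the third stretch was the fullest, with 32.2% in Ku70-/- A1, 32.7% in Lig4-/-Ku70-/- A1-1 and 37.5% in Lig4-/- +Lig4 A1. RAG-made Vk-to-Jk1 joints also filled the third stretch most in WT, with 38.7% in clone A and 36.2% in clone B.

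**Figure D2:**
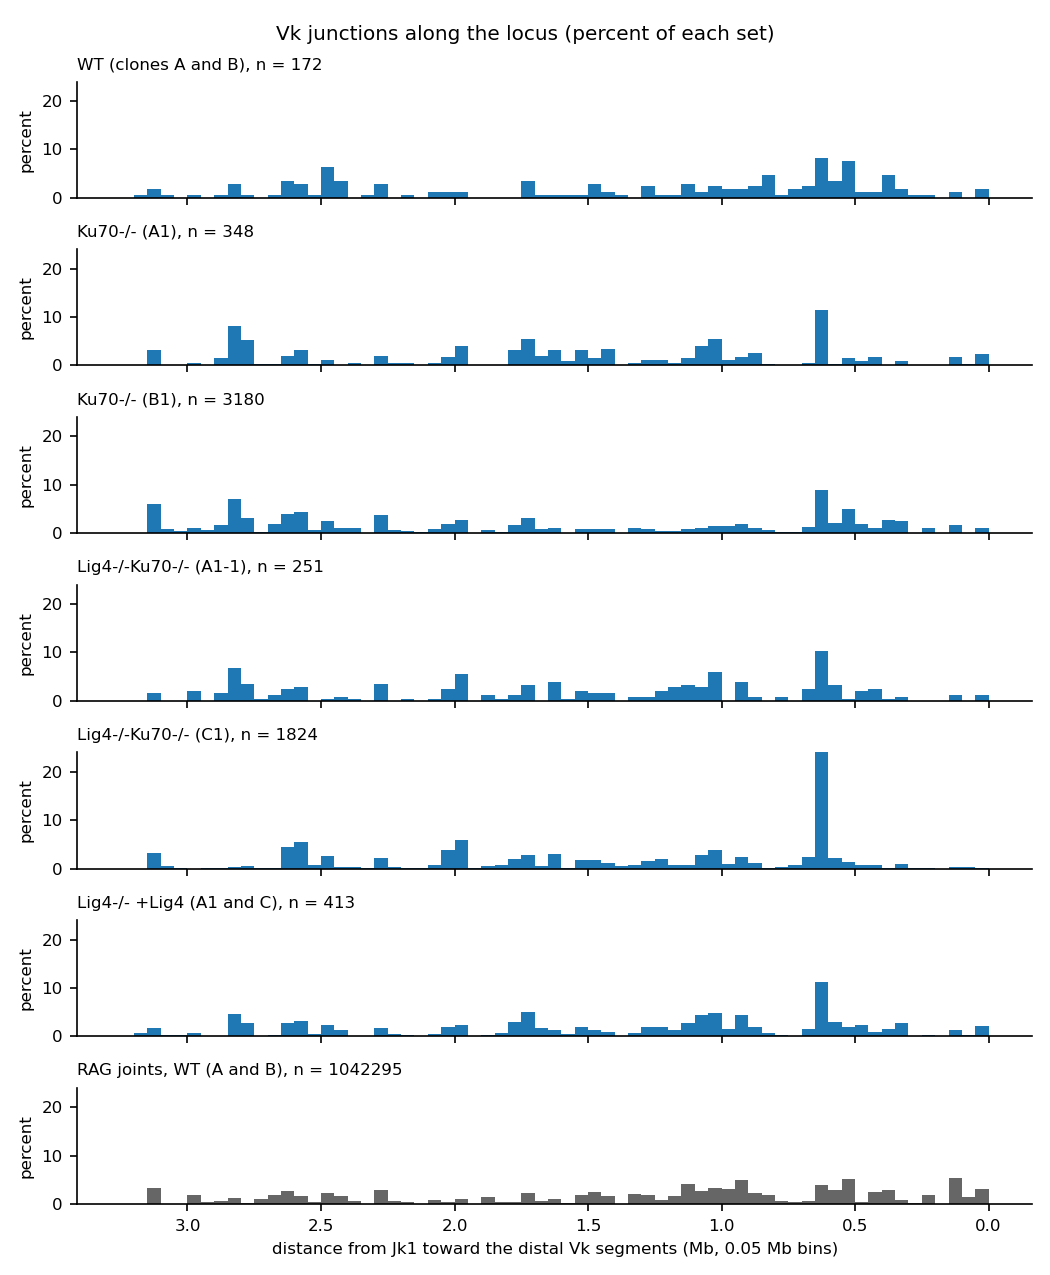
Share of Vk junctions in 0.05 Mb bins by distance from Jk1, distal segments on the left, for 6 sets of c-Myc translocations and for RAG joints of WT cells (grey). Every set spreads over the whole locus. The bin that holds Igkv6-32 and Igkv8-30 is the fullest in each of the 6 translocation sets. It is highest in Lig4-/-Ku70-/- C1, where it holds 24.3% and passes the top of the axis.

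Of 162 annotated segments, 123 had at least 1 junction within 100 bp and 82 had at least 10. The 39 others had none. Pseudogenes took 439 of the 5324 junctions, at 26 of 60 pseudogene segments. Use was uneven, with 42.2% of the junctions at 10 segments. All annotations here are V segments of RefSeq on chromosome 6.

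Igkv6-32 (70074024 to 70074584) was hit most, by 445 junctions in 26 libraries, and Igkv8-30 (70117061 to 70117617) followed with 360 in 24. Both invert on joining to Jk1. Igkv1-135 (67609745 to 67610508) had 261 junctions and Igkv11-125 (67913573 to 67914052) had 256, each in 19 libraries, and both are distal deletional segments. Igkv19-93 (68736297 to 68736764) had 222 in 21 libraries and Igkv1-117 (68121091 to 68121825) 192 in 22. Then came Igkv11-114, a pseudogene, with 151, Igkv10-95 with 130, Igkv6-25 with 128, Igkv4-80 with 102 and the pseudogene Igkv4-77 with 100. Igkv12-44, Igkv4-51, Igkv9-124, Igkv8-27, Igkv8-23-1, Igkv6-17, Igkv16-104, Igkv4-50 and Igkv8-21 had between 59 and 95 each.

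The leading segments differed between clones. Igkv6-32 took 13.2% to 16.7% of the near-segment junctions in the 3 Lig4-/-Ku70-/- C1 libraries, 14.8% ± 1.79 on average (SD, n = 3). It took 5.34% ± 1.00 in Ku70-/- B1, 8.15% ± 1.75 in Ku70-/- A1 and 6.41% ± 2.55 in Lig4-/- +Lig4 A1 (SD, n = 3 each). Igkv8-30 took 11.9% ± 1.08 in C1 and 4.56% ± 0.865 in Ku70-/- B1 (SD, n = 3). Igkv11-125 went the other way, with 0.255% ± 0.261 in C1, 7.34% ± 0.876 in Ku70-/- B1 and 7.53% ± 2.36 in Ku70-/- A1 (SD, n = 3). Igkv1-135 took 6.71% ± 0.619 in Ku70-/- B1 and 3.50% ± 1.03 in C1 (SD, n = 3). C1 and B1 differ in both lineage and genotype. Lig4-/-Ku70-/- A1-1, of the same genotype as C1, gave 5.78% at Igkv6-32, 5.20% at Igkv8-30 and 5.78% at Igkv11-125 in its 1 library with at least 50 near-segment junctions, nearer to the Ku70-/- clones than to C1. These segments were picked for their counts, and the differences are given with no test.

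In WT cells Igkv6-32 led with 9 of 156 near-segment junctions, ahead of Igkv6-25 with 7 and Igkv1-117 with 6. In Lig4-/- +Lig4 cells Igkv6-32 had 24 of 374, Igkv8-30 had 21 and Igkv12-44 had 12. With Ku70 added back to Lig4-/-Ku70-/- cells, 11 of 84 were at Igkv6-32, 10 at Igkv8-30 and 4 at Igkv11-114. The 7 junctions of G1-arrested Lig4-/- cells were spread over 6 segments, with 2 at Igkv1-117 and singles at Igkv1-88 and Igkv11-125 among others. The cycling Lig4-/- junction was at Igkv6-17, and the cycling WT junction lay beyond 100 bp of a segment.

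Segment use by translocation followed segment use by RAG in part. RAG joints come from other libraries of the same clones, read from the Jk1 coding end, and count coding joins only. Over the 123 segments with at least 20 WT RAG joints, the shares in Ku70-/- B1 correlated with Pearson's r = 0.755 and Spearman's rho = 0.854, and those in Lig4-/-Ku70-/- C1 with r = 0.784 and rho = 0.792. Values were r = 0.765 in Ku70-/- A1, 0.797 in Lig4-/-Ku70-/- A1-1, 0.675 in Lig4-/- +Lig4 A1, 0.564 in +Lig4 C and 0.613 in WT B. Segments are not independent replicates, and the smaller sets have few junctions per segment, so these describe the libraries only.

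Some segments lay far from that relation. Igkv11-125 took 7.51% of translocations in Ku70-/- B1 and 2.45% of its RAG joints, and Igkv9-124 took 2.28% and 0.365%. Igkv12-44 went the other way, with 1.38% against 4.04%. In Lig4-/-Ku70-/- C1 Igkv8-30 took 12% of translocations and 2.48% of RAG joints, while Igkv6-32 took 14.9% and 10.7% and Igkv1-135 took 3.59% and 7.52%. The Igkv3 family took 3.18% of translocations in Ku70-/- B1 and 4.95% of RAG joints, and 0.863% and 3.90% in C1. The Igkv4 family, the largest with 33 segments, took 14.8% against 25.3% in Ku70-/- B1 and 23% against 24.1% in C1.

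**Figure D3:**
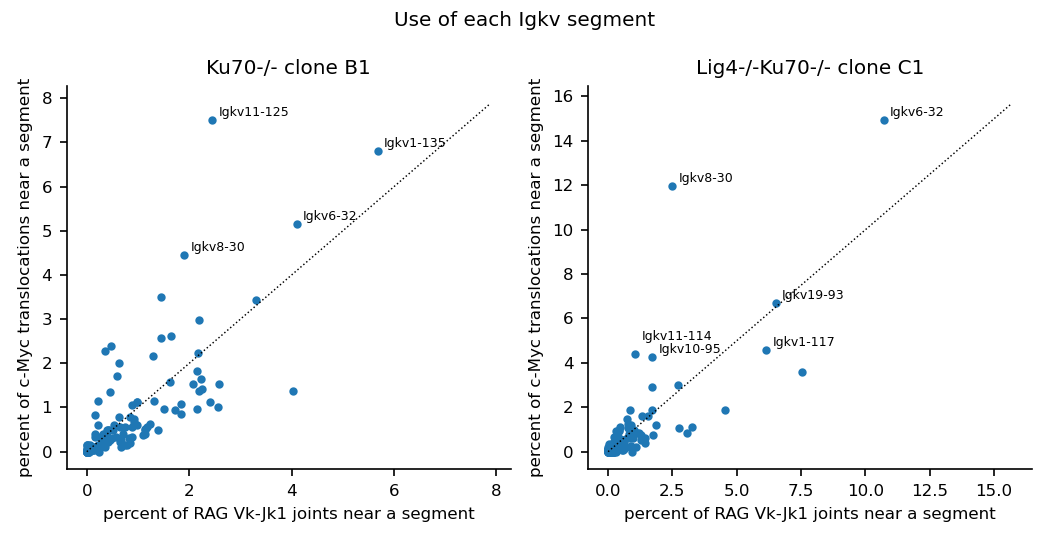
Percent of near-segment c-Myc translocations (vertical) against percent of RAG Vk-to-Jk1 joints (horizontal) for each Igkv segment in Ku70-/- clone B1 and Lig4-/-Ku70-/- clone C1. Each point is a segment, the dotted line marks equal shares, and names are given from 4% upward. Igkv11-125 on the left and Igkv8-30 on the right lie well above the line.

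Both products of the RAG cut were joined to c-Myc. Among 4723 junctions within 100 bp of a cut, 1938 (41.0%) used the coding end and 2785 the signal end. The coding share was 43.6%, 56.7% and 52.8% in WT B and 37.7%, 36.5% and 35.3% in Ku70-/- B1, 14.5 points lower with no overlap (exact permutation test, n = 3 and 3, p = 0.1, the smallest possible). In lineage A the order was the other way, with 33.3%, 50% and 28.6% in WT libraries of few junctions and 44.3% ± 2.32 in Ku70-/- A1 (SD, n = 3), which was not tested. Lig4-/-Ku70-/- cells joined coding ends more often than Lig4-/- +Lig4 cells: 52.0%, 43.5% and 49.4% in A1-1 against 33.3%, 29.9% and 29.6% in A1, and 52.4%, 49.4% and 45.9% in C1 against 30.4%, 33.3% and 32.1% in C. The difference was 17.3 points in each lineage (exact permutation test, n = 6 and 6, p = 0.005, adjusted p = 0.0236).

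Pooled over all libraries, segments differed in which end was found. Of 58 segments with at least 20 junctions at the cut, 40 had more signal than coding ends, 14 had more coding ends and 4 had equal numbers. Ku70-/- B1 gave 2358 of the 4723 junctions at a cut, 36.4% of them coding ends, against 49.1% in Lig4-/-Ku70-/- C1. Clones also used segments unequally: 223 of 256 junctions at Igkv11-125 came from Ku70-/- cells. The part that the mix of clones plays was not tested. Igkv8-23-1 had 77 signal and 8 coding ends, Igkv11-125 had 171 and 59, and Igkv8-30 had 226 and 114. Igkv6-32, with the same RSS letters as Igkv8-30, had 169 and 224. Igkv8-30 and Igkv6-32 thus differed in which end was found more often, given here with no test.

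Vk ends of WT cells lay a few bases from the RAG cut, and those of Ku70-/- and Lig4-/-Ku70-/- cells farther from it. The cut is the annotated segment end, and the most frequent WT RAG joint lay within 10 bp of it. Losses of a few bases lie inside that limit. End loss is given per library as the median distance from the cut without its sign, so the few ends that reach past the cut count as a distance too. Coding-end and signal-end values use ends within 100 bp of a cut, and values over both kinds of end use junctions within 100 bp of a segment. Coding ends lost a median of 4, 3 and 3 bases in WT B and 39, 39.5 and 41 in Ku70-/- B1. Signal ends lost 3, 2 and 2 in WT B and 29.5, 32 and 26 in Ku70-/- B1. No library overlapped, and the differences were 36.5 and 26.8 bases (exact permutation test, n = 3 and 3, p = 0.1 for each, the smallest possible). WT A libraries, each with 7 to 11 junctions, had medians of 2.5 to 3 bases at coding ends and 1 to 3 at signal ends, and Ku70-/- A1 44.5 to 48 and 24 to 38. Counted with sign, so that ends past the cut fall below 0, the medians were 3, 2 and 3 for coding and 0, 2 and 1 for signal ends in WT B, and the differences from Ku70-/- B1 were 37 and 28 bases (exact permutation test, n = 3 and 3, p = 0.1). Pooled over WT libraries, 23 of 76 signal ends (30.3%) kept every base, against 22 of 1637 (1.34%) in Ku70-/-.

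Lig4-/- +Lig4 ends lay between these in clone A1. Coding ends lost 12, 15.5 and 22 bases and signal ends 11, 11 and 14 in Lig4-/- +Lig4 A1. In clone C coding ends lost 5, 19 and 15 and signal ends 13.5, 13.5 and 3. The signed medians there were -1, 19 and 15 for coding and 13.5, 12 and 2 for signal ends. The coding values of clone C rest on 28 ends in all, with under 10 in at least 1 library. Lig4-/-Ku70-/- signal ends lost 26, 34 and 28.5 in A1-1 and 26, 34 and 28 in C1. That was 18.4 bases more than in Lig4-/- +Lig4 cells, which also keep Ku70 (exact permutation test, n = 6 and 6, p = 0.005, adjusted p = 0.0236). All ends together lay 22.3 bases farther from the cut (exact permutation test, n = 6 and 6, p = 0.005, adjusted p = 0.0236). With signed values these differences were 18 and 20.7 bases (exact permutation test, n = 6 and 6, p = 0.005 for each). Adding Ku70 back to C1 left coding ends at 38.5, 35 and 38 bases and signal ends at 10, 43.5 and 10. These rest on 29 coding and 30 signal ends in all, with under 10 of each kind in at least 1 library, and were not tested. Coding ends of A1-1 lost 37, 17 and 46 bases, which overlapped Lig4-/- +Lig4 A1 (exact permutation test, n = 3 and 3, p = 0.2). Among the named segments the pooled median loss, counted with sign, ran from 14 bases at Igkv1-117 to 47 at Igkv8-23-1 for coding ends, and from 13 to 42 for signal ends.

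**Figure D4:**
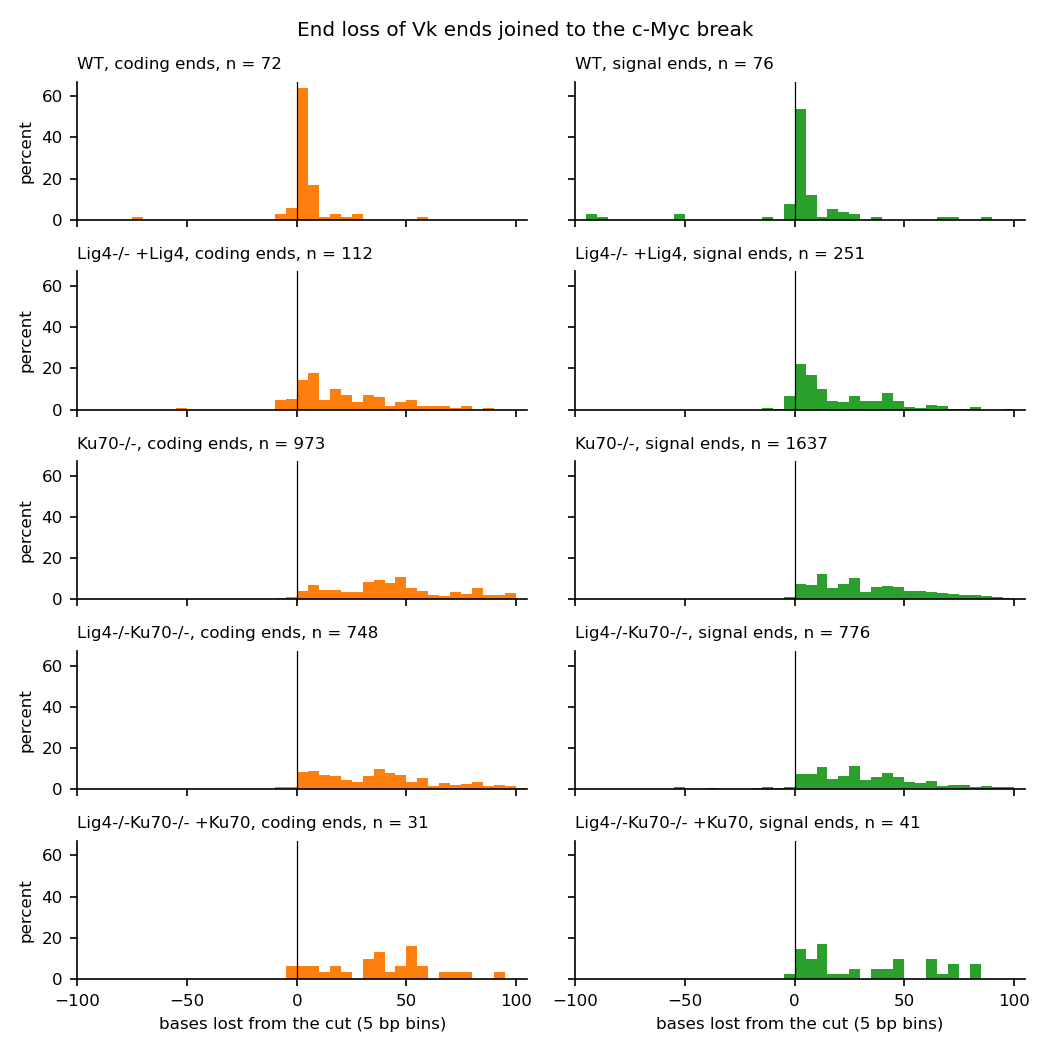
Percent of Vk ends by bases lost from the RAG cut in 5 bp bins, coding ends on the left and signal ends on the right, G1-arrested libraries pooled by genotype. Values below 0 are prey that reach past the cut. WT ends pile up within 10 bases of the cut. Ends of the genotypes without Ku70 and of the Ku70 add-back reach the bins at 80 bases and beyond, where a few WT and Lig4-/- +Lig4 ends lie too.

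The c-Myc side of the same joins followed the Vk side. The median loss from the bait end was 0 bases in all 3 WT B libraries and 34, 29 and 30 in Ku70-/- B1 (difference 31 bases, exact permutation test, n = 3 and 3, p = 0.1, the smallest possible). Lig4-/-Ku70-/- lost 37, 26.5 and 29 bases in A1-1 and 25, 28.5 and 29 in C1. Lig4-/- +Lig4 lost 7, 8 and 7 in A1 and 3, 5 and 4 in C, 23.5 bases less (exact permutation test, n = 6 and 6, p = 0.005, adjusted p = 0.0236). The Ku70 add-back to C1 lost 36, 40 and 31 bait bases. The bait was intact in 86 of the 172 G1-arrested WT junctions.

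Insertions were frequent at Vk junctions of WT and Lig4-/- +Lig4 cells and rare at those of every other genotype. Inserted bases were found in 39.5%, 36.1% and 22.2% of Vk junctions in WT B and in 3.03%, 3.07% and 2.69% in Ku70-/- B1 (difference -29.7 points, exact permutation test, n = 3 and 3, p = 0.1, the smallest possible). WT A junctions held insertions in 72.7%, 85.7% and 62.5% of 11, 7 and 8. Lig4-/- +Lig4 had 22.7%, 24% and 14.5% in A1 and 48.1%, 34.0% and 40.6% in C. Lig4-/-Ku70-/- had 0%, 8.33% and 1.01% in A1-1 and 1.75%, 1.98% and 1.31% in C1, 28.3 points lower (exact permutation test, n = 6 and 6, p = 0.005, adjusted p = 0.0236). The Ku70 add-back, which has Ku70 and lacks Lig4, had insertions in 1 of 99 junctions, and Lig4-/- cells in 0 of 7. The median insertion was 2 bp in WT, where the longest was 11 bp.

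Microhomology differed less. Overlaps of at least 2 bp were found in 20.9%, 19.4% and 14.3% of Vk junctions in WT B and 27.4%, 24.4% and 23.8% in Ku70-/- B1, a difference of 6.99 points with no overlap (exact permutation test, n = 3 and 3, p = 0.1, the smallest possible). Ku70-/- A1 gave 40.3%, 34.0% and 25.8%. Lig4-/-Ku70-/- averaged 25.8% ± 2.87 in A1-1 and 25.2% ± 2.01 in C1, and Lig4-/- +Lig4 17.5% ± 4.85 in A1 and 17.6% ± 6.95 in C (SD, n = 3 each). That difference of 8.00 points had p = 0.02 (exact permutation test, n = 6 and 6) and did not pass after adjustment over the added tests (adjusted p = 0.0825). Adding Ku70 back to C1 gave 21.2%, 12% and 39.1% (difference -1.13 points, exact permutation test, n = 3 and 3, p = 0.9). In Lig4-/- cells 6 of 7 junctions had at least 2 bp of overlap, and the longest was 9 bp. Outside Igk such overlaps made up 51.6% to 77.5% of junctions on average in the 5 G1-arrested Lig4-/- sets, so the count is read against that background.

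**Figure D5:**
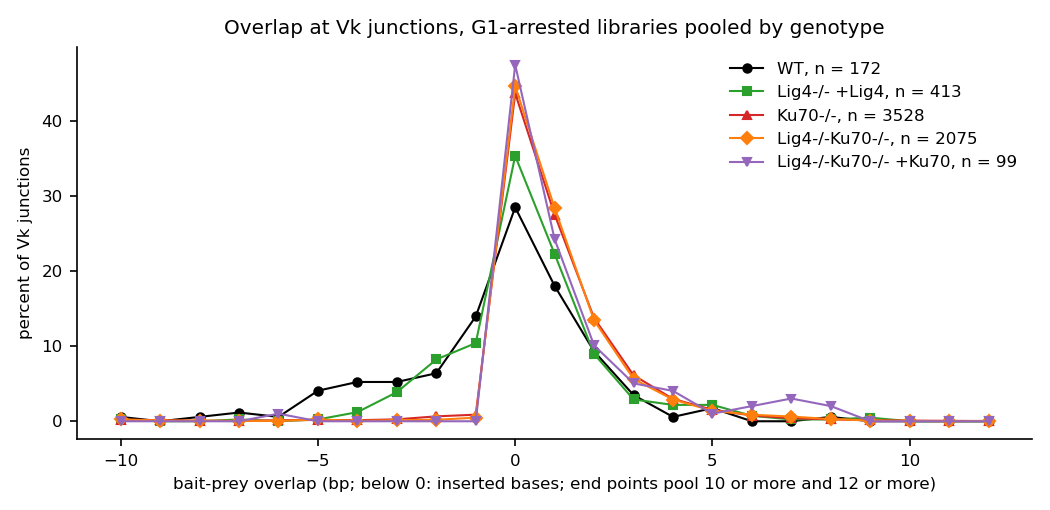
Percent of Vk junctions by overlap of bait and prey in bp, G1-arrested libraries pooled by genotype. Values below 0 are inserted bases. Every genotype shown peaks at 0 bp, with 1 bp next. WT and Lig4-/- +Lig4 also have a shoulder of insertions below 0.

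Vk junctions were also set against junctions outside Igk in the same libraries. No difference passed the adjusted test, but the smallest exact sign-flip p was 0.0312 with 6 libraries, adjusted to 0.0938. With 4 libraries it was 0.125. Failing to pass therefore does not show that the shares were alike. In Ku70-/- cells insertions were 25.6 points less frequent at Vk than outside Igk, lower in 6 of 6 libraries (exact sign-flip test, two-sided, n = 6, p = 0.0312, the smallest possible, adjusted p = 0.0938). The differences were -27.6 points in Lig4-/-Ku70-/- and -12.1 in Lig4-/- +Lig4, again in 6 of 6 libraries (exact sign-flip test, n = 6, p = 0.0312 and adjusted p = 0.0938 for each). In WT, with 4 libraries of at least 10 Vk junctions, it was 6.06 points (exact sign-flip test, n = 4, p = 0.375). In the Ku70 add-back it was -21.6 points, lower in 4 of 4 such libraries (exact sign-flip test, n = 4, p = 0.125, the smallest possible). Outside Igk, insertions made up 20.4% ± 1.53 in Ku70-/- B1 and 29.8% ± 2.09 in WT B (SD, n = 3). Microhomology shares at Vk differed from those elsewhere by 5.36 points in Ku70-/- (n = 6, p = 0.0938) and -6.46 in WT (n = 4, p = 0.125, exact sign-flip tests). The differences were 2.67 in Lig4-/-Ku70-/- (n = 6, p = 0.219), -2.47 in Lig4-/- +Lig4 (n = 6, p = 0.406) and -14.0 in the Ku70 add-back (n = 4, p = 0.125, exact sign-flip tests). None passed 0.05.

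Orientation of the prey was close to balanced. Of all members, 3186 ran toward the telomere and 3110 toward the centromere. The telomere-ward share was 48.8%, 58.3% and 52.4% in WT B and 51.5%, 50.9% and 52.3% in Ku70-/- B1 (difference -1.59 points, exact permutation test, n = 3 and 3, p = 0.7). Lig4-/- +Lig4 A1 had 37.9%, 43.8% and 42.1%. Mouse chromosomes carry their centromere at the start, so the first orientation joins the c-Myc bait to a chromosome 6 piece without a centromere.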

How the data were processed

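Junctions were read by linear amplification-mediated sequencing from a primer beside the c-Myc break, with the enzyme blocking step omitted per the labels. The authors deposited junction lists from the JoinT-seq pipeline named in the labels, 1 row per read, whose values are positions, strands and read coordinates. They normalised libraries to 201858, 273198, 310675, 396387 or 600000 raw reads per the labels. Bowtie2 and mm10 are named in the submitters' processing notes; settings and versions are not given in the sources used here. Libraries held 74 to 55809 junctions, of which 24 to 5466 were interchromosomal.

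Rows on chromosome 6 from 67500001 to 70719999 were extracted with Python 3.11.15 and pandas 2.3.3, and annotated with the RefSeq gene table (GRCm38). Segment orientation came from at least 20 WT RAG joints, and the cut was the annotated segment end on that side. Overlap was the bait end minus the prey start on the read plus 1, and values below 0 were insertions. Shares and medians were tested where each library held at least 10 junctions. Exact permutation tests ran within lineages, with Benjamini-Hochberg adjustment over 25 tests and, separately, over 33 tests added after the data were seen. Scripts were tested on simulated data.

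No replicate pair shared a read name, and identical Vk junctions shared by a pair numbered at most 14. No molecular identifiers were used, so intervals cover counting error only. Members, lists and comparisons were chosen with earlier results of these data known. Segments were named by a rule: the 20 found in most Cas9 libraries, and the 3 with most junctions per genotype and cell cycle status. Consensus letters came from prey parts of the reads, since no genome sequence was used. Alternatives tried were distinct junctions or fragments, other pseudocounts, denominators, distances, overlaps and minimums, the LAM-HTGTS lists, sequencing runs, single lineages and left-out replicates.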

Additional observations from a re-analysis of the deposited data

Results flagged for a closer look

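Of 21 comparisons made in both of a pair of lineages, the effect differed between lineages at an unadjusted p under 0.05 in 2, both of Lig4-/-Ku70-/- against Lig4-/- +Lig4 cells. Vk abundance was -0.90 on the log2 scale in lineage A and 4.11 in lineage C, a difference of -5.01 (exact permutation test of the difference, two-sided, n = 3 in each of 4 groups, p = 0.02). The share of Vk among interchromosomal junctions was -7.07 points in lineage A and 17.5 points in lineage C, a difference of -24.5 points (exact permutation test of the difference, n = 3 in each of 4 groups, p = 0.005). The +Lig4 libraries of clone A1 held 32.7 to 71.8 Vk junctions per 100000 reads and those of clone C 9.88 to 17.2. The groups compared shared no sequencing run in either lineage, and the lineages had different stated read numbers; the part these play was not tested.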

How the results depend on the processing

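Abundance differences kept their direction and exact permutation p = 0.005 with distinct junctions, distinct fragments or a pseudocount of 1 in all 5 genotype comparisons. Over all alternatives other than left-out replicates, 127 values kept direction and side of 0.05, 24 fell short of 0.05, 6 newly passed it, 10 reversed and 1 moved. Values below are log2 differences for abundance and percentage points for shares.

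Within a single lineage no exact permutation test of 3 against 3 can pass (smallest p 0.1). Abundance was then 3.48 in lineage A and 4.45 in B for Ku70-/- against WT, -3.64 and -5.48 for Lig4-/- against WT, and in lineages A and C 5.65 and 9.46 for Lig4-/-Ku70-/- against Lig4-/-, -3.44 and -4.47 for Ku70 add-back, and 6.55 and 5.35 for Lig4 add-back. The shares of interchromosomal junctions were 7.99 and 23.8, -1.03 and -2.09, 5.91 and 19.8, and 12.99 and 2.30 for Lig4 add-back. Ku70 add-back reversed to 5.16 in lineage A, and the Vk minus other microhomology difference of Lig4 add-back to 0.93 in lineage C. With the LAM-HTGTS lists of lineage A, abundance was 3.48 for Ku70-/- and -3.12 for Lig4-/-, and the shares were 4.13 and -0.653; these lists hold the same number of Vk junctions in all 6 WT and Ku70-/- libraries, so the first value is no separate check. Within sequencing runs of lineage A, Lig4-/-Ku70-/- against Lig4-/- was 6.0. The groups shared no run for Ku70-/- against WT in lineage A, Lig4-/-Ku70-/- against Lig4-/- in lineage C, Lig4 add-back and the cycling comparisons.

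Counted per all junctions of a library, which include rejoining at c-Myc, the abundance difference was 3.48 for Lig4-/- against WT, 0.68 for Lig4-/-Ku70-/- against Lig4-/-, 1.17 for Ku70 add-back, -1.06 for Lig4 add-back and -6.51 for cycling Lig4-/-, and the difference of the cycling effects was -6.27. Lig4-/- libraries held 74 to 411 junctions in G1. The G1-arrested Lig4-/- libraries set against cycling ones held 0 Vk junctions among 74, 100 and 85 in all. The cycling Lig4-/- libraries held 0, 1 and 0 among 10022, 13060 and 10829. The value of -6.51, and -6.27 which contains it, therefore rest on the constant added to each count and on these totals. They cannot show a change in the Vk share with cycling. The part that the number of junctions plays in the other values was not tested.

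For Ku70-/- against WT, the near-segment share within 500 bp differed by 0.357. With a minimum of 5 junctions, which adds lineage A, it differed by -6.16, microhomology by 16.6 and end loss by 38.4 bases, and WT Vk minus other microhomology was -8.74. With overlaps of at least 4 bp, Ku70 add-back changed microhomology by 2.36. With at least 1 bp, Vk minus other was 12.2 in Ku70-/-, 15.7 in Lig4-/-Ku70-/- and 2.73 in Lig4 add-back. Signed end loss, an alternative chosen after seeing the data, gave 35.7 bases with exact permutation p = 0.1. The causes of these changes were not tested.

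Leaving out 1 replicate number at a time, where the smallest exact permutation p is 0.0556, gave abundance differences of 3.69 to 4.13 for Ku70-/- against WT, -5.11 to -4.08 for Lig4-/- against WT, 6.97 to 8.27 for Lig4-/-Ku70-/-, -4.38 to -3.69 for Ku70 add-back and 5.39 to 6.70 for Lig4 add-back. Shares ranged over 13.98 to 17.3, -1.98 to -1.23, 11.2 to 14.1, -4.64 to 0.854 and 6.81 to 8.85 in that order. For Ku70 add-back, microhomology ranged over -8.03 to 3.77 and the near-segment share over -0.917 to 5.13.

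Correlations of same-numbered deviations, over 3 libraries per lineage, ran from -1.0 to 0.99. So few libraries cannot show whether replicate numbers pair the samples. Some same-numbered libraries did share a sequencing run, as in WT A and the Lig4-/- A1 set compared with it. Of 48 tests also run with the replicate block, 17 had an exact p under 0.05 without the block, and 2 lost it with the block. These were the share of Lig4-/- against WT, -1.56 with exact p = 0.0625, and microhomology of Lig4-/-Ku70-/- against Lig4 add-back, also exact p = 0.0625. Tests of near-segment and microhomology shares in Lig4-/- and cycling groups were not run, since their libraries held under 10 Vk junctions.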

Other observations

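Away from the annotated cuts, 10 places gathered junctions in which centromere-ward and telomere-ward prey lay on opposite sides of a shared point. They were found after the data were seen, by grouping junctions over 150 bp from any cut (gaps up to 60 bp, at least 10 junctions, 3 libraries and 3 of each orientation). The fullest lay 34 bp before Igkv11-114, at chromosome 6 position 68164425 or 68164426, with 167 junctions in 17 libraries, 120 centromere-ward and 47 telomere-ward, and 6 on the other side of the point. Of these, 83 came from Ku70-/-, 74 from Lig4-/-Ku70-/-, 4 each from the Lig4 and Ku70 add-backs and 2 from WT. Of the 151 junctions within 100 bp of Igkv11-114, only 15 were within 100 bp of its cut on the Jk-facing side. The letters at the point, chr6:68164386-68164425 on the minus strand, are shown because they begin with CAC as an RSS heptamer does, with the heptamer and the best nonamer in capitals.
Site before Igkv11-114: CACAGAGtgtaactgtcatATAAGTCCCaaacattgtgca

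The next sites lay inside Igkv15-103 (68437601 to 68437613, 55 junctions in 10 libraries), 956 bp beyond Igkv6-32 (70075540, 43 in 8), 701 bp from Igkv4-53 (26 in 8), 376 bp from Igkv4-54 (24 in 10) and 838 bp from Igkv1-117 (18 in 9). None of these 6 had a RAG joint to Jk1 within 25 bp. Letters starting with CAC stood within 2 bases of the point at these 6. None were found among the covered letters at the other 4 of the 10 places. At the 6, the first 7 letters matched 6, 6, 6, 5, 6 and 5 letters of CACAGTG in the order given, starting with Igkv11-114. The site inside Igkv15-103 read CACATTG, and the site beyond Igkv6-32 read CACAATG. Both strands were searched over the range of equal points, so several positions were tried per site. For comparison, 1.02% of the 138026 covered positions hold CAC and at least 5 of those 7 letters on either strand. Of 68 segment cuts with letters, 52 carried CACAGTG itself. The best nonamer matched 5, 5, 6, 3, 8 and 7 of the 9 letters of ACAAAAACC. At the sites near Igkv6-32, Igkv4-53 and Igkv1-117 some letters were read once. A match describes letters only. Igkv15-103, Igkv4-53, Igkv4-54 and Igkv4-60 are named because of these counts, after their values were seen. The other 4 places held 10 to 18 junctions, and the one 97 bp from Igkv4-60 had 10785 RAG joints within 25 bp, at a segment that was given no cut because its joints gathered over 10 bp from its annotated end.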
